A study of Mus musculus with 20 samples.

Results

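Insulin and insulin-like growth factor 1 act on the heart through a shared cascade, and 10 genes of that cascade are described here in left ventricle: the ligand Igf1, the receptors Insr and Igf1r, the adaptors Irs1 and Irs2, the PI3-kinase subunit Pik3r1, the kinase Akt2, its substrate Tbc1d4, and the glucose transporters Slc2a1 and Slc2a4. They were chosen by gene symbol, matched to the Ensembl identifiers of the count table, and all 10 were among the 15956 genes listed and the 13991 genes tested. The samples were 20 mouse hearts, 5 from each of 4 diets. The study crossed dietary fat with dietary protein in aging mice.

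NP mice received the control diet, with casein as its protein source and a normal fat content. LP mice received a diet with less casein, HF mice a high-fat diet with the casein content of the control diet, and HF + LP mice a high-fat diet with the reduced casein content. All mice were males, bought from Jackson Laboratory and housed in groups, with no strain named in the study's methods. By the study's methods, the diets were started in middle age. Hearts were collected in the middle of the light phase, from fed mice unless stated otherwise. Age is 18 months by the labels, which is older than the collection age in the study's methods. Body weight was lowest in LP (29.9 to 36.9 g) and highest in HF (56.1 to 60.9 g), with NP at 33.3 to 52.3 g and HF + LP at 41.2 to 56.1 g. If these mice were fed, the levels below are those of hearts exposed to the insulin of that state. Neither insulin nor any protein was measured in these files.

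When insulin binds INSR, or IGF-1 binds IGF1R, the receptor phosphorylates the adaptors IRS1 and IRS2, which recruit PI3-kinase to the membrane. The lipid made there activates AKT, and AKT phosphorylates TBC1D4 and thereby releases vesicles that carry GLUT4, the transporter encoded by Slc2a4, to the surface of the cardiomyocyte. GLUT1, encoded by Slc2a1, resides at the surface without insulin and supplies basal glucose uptake. AKT also holds FOXO transcription factors out of the nucleus, and FOXO factors are known to raise transcription of Insr and Irs2 when insulin signaling is low.

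Libraries were made from the 3′ ends of transcripts, so each transcript gives about 1 tag whatever its length, and counts are compared between genes below as they stand. Total counts per mouse lay between 12559607 and 23331907 (median 16637184), and counts of single members between 87 and 4901. All 10 cardiomyocyte markers were detected in every library, with a summed level of 38140 to 65610 CPM (counts scaled to library size). One LP heart, mouse 13, stood apart: its median correlation with the other LP hearts was 0.908, while every other heart reached 0.944 or higher with its own diet group, and its atrial marker sum was 15290 CPM with adipocyte markers at 318 CPM. HF mouse 1 followed with an atrial sum of 12050 CPM, while the median over the 20 hearts was 792 CPM. In bulk tissue, fewer cells of a type and less RNA per cell cannot be told apart.

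Promoter sequences are shown for 4 members: Irs1 and Irs2, the adaptors with the highest levels in LP, and Igf1r and Pik3r1, which moved together from mouse to mouse. Each window spans 250 bases before to 50 after a RefSeq start site on GRCm38.p6 and reads 5′ to 3′ on the strand of the gene. The windows lie at chr1:82291390-82291689 (Irs1, minus strand), chr8:11008880-11009179 (Irs2, minus), chr7:67952007-67952306 (Igf1r, plus), and chr13:101768168-101768467 and chr13:101692581-101692880 (the upstream and downstream starts of Pik3r1, minus). Capitals mark the GC box (GGGCGG, or CCGCCC on the other strand) and the E-box (CACGTG, the same on both strands).
Irs1: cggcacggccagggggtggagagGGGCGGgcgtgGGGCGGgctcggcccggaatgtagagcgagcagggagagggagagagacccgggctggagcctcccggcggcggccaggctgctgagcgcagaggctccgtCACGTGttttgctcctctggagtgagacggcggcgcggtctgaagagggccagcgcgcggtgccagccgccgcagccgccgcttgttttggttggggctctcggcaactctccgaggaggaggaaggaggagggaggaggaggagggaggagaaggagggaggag
Irs2: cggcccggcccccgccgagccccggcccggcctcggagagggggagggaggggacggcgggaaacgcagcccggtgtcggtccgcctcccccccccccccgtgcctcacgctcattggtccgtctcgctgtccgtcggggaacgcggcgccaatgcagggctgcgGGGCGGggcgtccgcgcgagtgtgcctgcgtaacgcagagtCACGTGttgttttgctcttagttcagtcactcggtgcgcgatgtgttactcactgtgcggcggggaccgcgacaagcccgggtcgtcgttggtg
Igf1r: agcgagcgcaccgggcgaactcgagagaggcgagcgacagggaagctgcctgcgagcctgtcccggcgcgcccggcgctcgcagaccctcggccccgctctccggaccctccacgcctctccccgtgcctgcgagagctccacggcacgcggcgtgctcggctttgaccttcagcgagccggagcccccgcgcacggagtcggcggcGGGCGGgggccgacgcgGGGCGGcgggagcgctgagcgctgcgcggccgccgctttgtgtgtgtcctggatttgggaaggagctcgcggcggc
Pik3r1 upstream: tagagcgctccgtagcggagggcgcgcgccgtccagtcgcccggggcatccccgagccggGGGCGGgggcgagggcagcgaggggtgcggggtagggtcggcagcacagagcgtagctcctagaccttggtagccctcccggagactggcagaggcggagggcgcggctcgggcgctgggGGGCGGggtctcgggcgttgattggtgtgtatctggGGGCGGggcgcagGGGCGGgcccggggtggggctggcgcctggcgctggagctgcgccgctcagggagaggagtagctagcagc
Pik3r1 downstream: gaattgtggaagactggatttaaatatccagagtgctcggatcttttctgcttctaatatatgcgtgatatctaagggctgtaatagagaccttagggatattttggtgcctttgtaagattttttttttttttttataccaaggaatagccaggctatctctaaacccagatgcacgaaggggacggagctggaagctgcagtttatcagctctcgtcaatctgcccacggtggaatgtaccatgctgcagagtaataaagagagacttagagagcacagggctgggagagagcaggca

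The E-box was found in the windows of Irs1 and Irs2 and in no other of the 12 member windows, and 7.15% of all 32851 promoter windows hold it. The GC box was in 7 member windows, one for each of Irs1, Irs2, Igf1r, Pik3r1, Akt2, Slc2a1, and Tbc1d4, beside 35.7% of all windows. The GC content was 76.0% in the Igf1r window, 75.7% in the upstream Pik3r1 window, and 71.3% or higher in those of Irs1 and Irs2, against a median of 52.7% over all windows, and the downstream Pik3r1 window had 43.7% with no GC box. The FOXO core (TGTTTAC, or GTAAACA on the other strand) was in 0 of the 12 windows and in 3.65% of all windows. No match overlapped another. Windows were matched for 8 members, and those of Insr and Slc2a4 were not used here.

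The members spanned a wide range of levels. Slc2a4 was the highest, at a mean normalized count of 3446 over the 20 mice, followed by Akt2 (1120), Pik3r1 (1078), and Tbc1d4 (1018). Insr (580), Igf1 (441), Igf1r (436.5), and Irs1 (311) formed a middle group, and Slc2a1 (167) and Irs2 (165) were the lowest. Akt2, Pik3r1, and Tbc1d4 could not be ordered, since each ranged over all 3 means (809 to 1801, 461 to 1761, and 688 to 1438), and the same held for Igf1 (268 to 769) against Igf1r (296 to 636) and for Slc2a1 (99.8 to 284) against Irs2 (101.5 to 261). Slc2a4, the insulin-responsive transporter, had more tags than the basal transporter Slc2a1 in every mouse, and Insr had more than Igf1r in every mouse except LP mouse 20 (631 against 636).

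Variation between mice on the same diet also differed among members. The within-diet standard deviation of log2 CPM was smallest for Slc2a4 (0.18), Insr (0.19), and Tbc1d4 (0.20), and these lay under the median of 0.25 over the 10099 genes with a mean normalized count over 50. Pik3r1 was the most variable, at 0.58, higher than 93.2% of those genes, and Igf1 followed at 0.40. The PI3-kinase subunit therefore had the widest intervals in every diet comparison below.

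**Figure D1:**
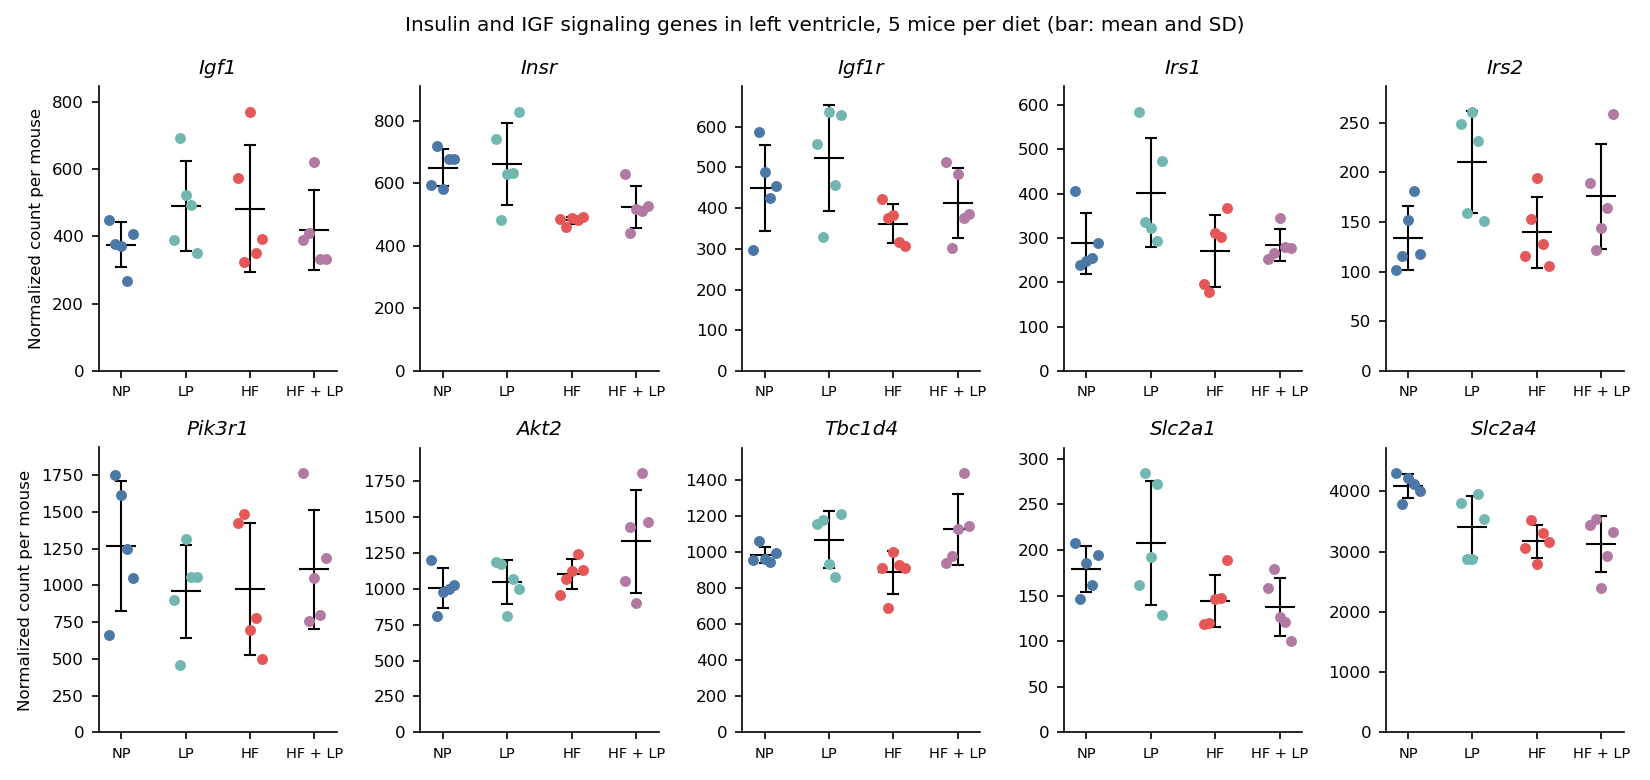
Normalized counts of the 10 members in each mouse (y axis, linear and from 0) for the NP, LP, HF, and HF + LP diets (x axis), with 1 point per mouse and bars for the mean and SD of 5 mice. Insr and Slc2a4 in HF lie below every NP mouse, and Irs2 is highest on average in LP, with overlap between groups.

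Diet effects were estimated for 4 pairs of diets, for high against normal fat over both protein contents, for low against normal protein over both fat contents, and for the interaction of fat and protein. A gene was called at an adjusted p under 0.01 with a mean normalized count over 50. By edgeR's quasi-likelihood test, 0 of the 10 members were called in any of these 7 comparisons. The same rule called 0.264% of all genes in HF against NP, 0.100% in HF + LP against LP, 0.993% for high fat, and 0% in each of LP against NP, HF + LP against HF, low protein, and the interaction. In the last 4, 1012, 677, 766, and 1003 genes had an unadjusted p under 0.05, and DESeq2 on all 4 diets called 3, 16, 1, and 0. DESeq2 in that form called 1 member, Insr, for high fat and 0 members elsewhere. Effects are therefore given below with their 95% intervals and, where the unadjusted p was under 0.05, as values that did not pass the adjusted threshold.

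The question asked by HF against NP was whether a high-fat diet at normal protein changed these genes. The insulin receptor and GLUT4 had the smallest p-values of the members. Insr was 594, 720.5, 583, 676, and 677 in NP mice 4, 5, 3, 6, and 8, and 485, 461, 488, 483.5, and 491 in HF mice 1 to 5. Every HF heart lay below every NP heart, and the HF hearts spread less than the NP hearts. NP averaged 650.1 ± 59.1 and HF 482 ± 11.9 (SD, n = 5). The difference was −0.43 on the log2 scale, with a 95% interval from −0.68 to −0.18.

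Its unadjusted p was 0.00194, and its adjusted p by edgeR was 0.0805. Slc2a4 was 4296, 3787, 4219, 4123, and 3997 in the same NP mice and 3059, 3528, 2789, 3314, and 3151 in HF mice 1 to 5. Here too the groups did not overlap. The log2 fold change was −0.37 (interval −0.61 to −0.13), with an unadjusted p of 0.0046 and an adjusted p by edgeR of 0.123. DESeq2 fitted to the NP and HF hearts alone called both genes, with adjusted p-values of 0.000552 for Insr and 0.000582 for Slc2a4, and DESeq2 fitted to all 4 diets called neither.

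The other 8 members had unadjusted p-values over 0.05 in HF against NP. Values lower in HF were Pik3r1 (−0.38, interval −1.06 to 0.30), Igf1r (−0.32, −0.71 to 0.08), Slc2a1 (−0.31, −0.73 to 0.12), Tbc1d4 (−0.15, −0.41 to 0.12), and Irs1 (−0.08, −0.52 to 0.36). Values higher in HF were Igf1 (0.37, −0.13 to 0.86), Akt2 (0.14, −0.19 to 0.47), and Irs2 (0.06, −0.41 to 0.52). Single hearts moved these values, since Igf1 was 0.13 without HF mouse 3, Pik3r1 −0.21 without HF mouse 5, Igf1r −0.21 without NP mouse 5, and Tbc1d4 −0.07 without HF mouse 2. The sign of Irs1 turned without NP mouse 4 (0.08) and that of Irs2 without HF mouse 3 (−0.10), while Slc2a4 stayed between −0.41 and −0.32 with any mouse left out. Thus 2 of 10 members lay under an unadjusted p of 0.05, both lower, beside 13.1% of all genes, and 2 of 10 did not overlap between the groups, beside 5.67% of all genes. The median over the members was −0.23, and over all genes −0.0011.

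Cell type markers moved in the same comparison. The cardiomyocyte marker sum was 54440 to 65610 CPM in NP and 42190 to 56570 CPM in HF, and all 10 of its genes were lower in HF, 4 at an unadjusted p under 0.05. The macrophage sum was 260 to 347 CPM in NP and 347 to 469 CPM in HF, with all 9 genes higher and 4 under 0.05. All 8 fibroblast and all 5 red blood cell markers were higher in HF, 1 of each under 0.05, and 2 of 6 mural cell markers were lower under 0.05. All 5 atrial markers were higher in HF, 0 of them under 0.05. After diet means were removed, Slc2a4 followed the cardiomyocyte sum (r = 0.82 over 20 mice, as a description). It ran against the adipocyte (r = −0.68), atrial (r = −0.65), and fibroblast sums (r = −0.57). Insr ran against the macrophage (r = −0.73), red blood cell (r = −0.68), and fibroblast sums (r = −0.58) and with the cardiomyocyte sum (r = 0.52). The mitochondrial share of counts also separated these groups, at 41.26 to 47.11% in NP and 38.12 to 39.76% in HF, and within diets it had r = 0.29 with Insr and 0.30 with Slc2a4. The part of cell composition and of the mitochondrial share in the lower Slc2a4 and Insr levels was not tested.

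**Figure D2:**
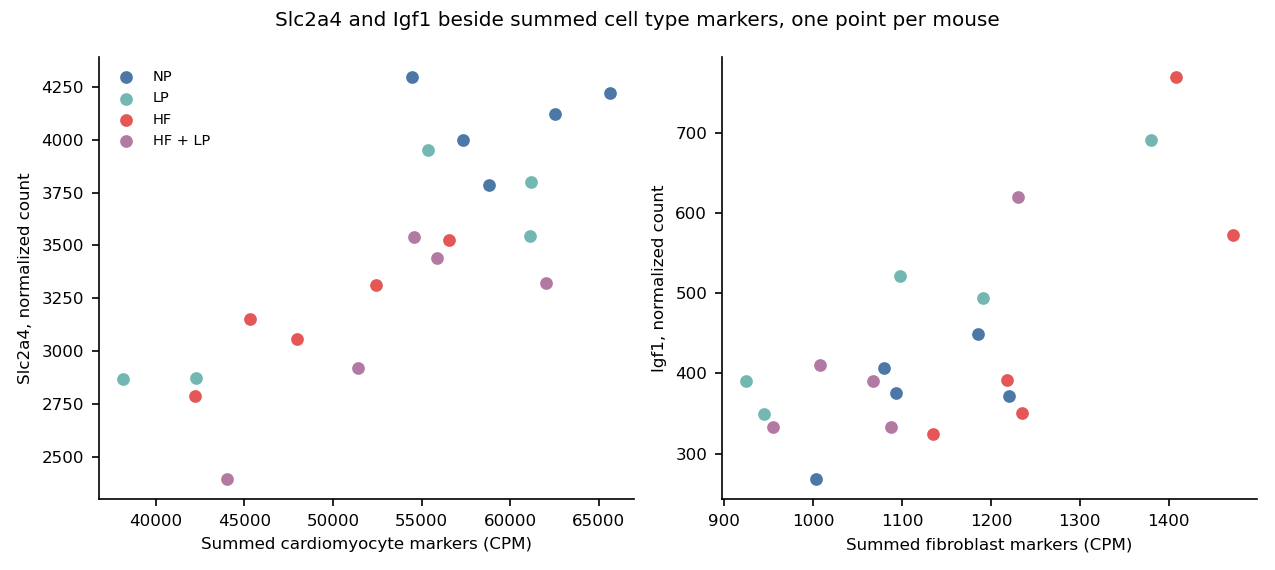
Normalized count of Slc2a4 against the summed level of 10 cardiomyocyte markers, and of Igf1 against that of 8 fibroblast markers (x axes in CPM), with 1 point per mouse colored by diet and axes not starting at 0. Slc2a4 is higher in hearts with more cardiomyocyte marker RNA, and Igf1 in hearts with more fibroblast marker RNA.

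HF + LP against LP asked the same of fat at low protein, in 10 mice that HF against NP did not use. Insr was 741, 482, 631, 633, and 828 in LP mice 2, 13, 20, 15, and 5, and 629, 442, 517, 512, and 527 in HF + LP mice 1 to 5. The lowest LP value was that of mouse 13, the heart that stood apart, and the groups overlapped through it alone, with HF + LP mouse 1 just under the other 4 LP hearts. The log2 fold change was −0.33 (interval −0.59 to −0.08), with an unadjusted p of 0.012 and an adjusted p by edgeR of 0.184.

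The basal transporter Slc2a1 had the widest gap at low protein. It was 161, 284, 192, 272, and 128 in LP mice 2, 13, 20, 15, and 5 and 159, 179.7, 126, 121.5, and 99.8 in HF + LP mice 1 to 5. Here 3 LP hearts lay above every HF + LP heart, and the other 2 overlapped with them. The log2 fold change was −0.60 (interval −1.03 to −0.17, unadjusted p = 0.00824, adjusted p by edgeR = 0.164), and adipocyte markers moved with it, at 4.96 to 318 CPM in LP and 0.726 to 12.05 CPM in HF + LP, all 7 of them lower in HF + LP at an unadjusted p under 0.05. Within diets, Slc2a1 had r = 0.22 with the adipocyte sum and 0.75 with the macrophage sum, as a description. Among LP hearts, mice 13 and 15 had both the highest Slc2a1 counts and the highest macrophage sums (490 and 455 CPM), and mouse 15 had adipocyte markers at only 6.91 CPM. In HF + LP against LP the 9 macrophage markers had a median of −0.07, with 1 higher and 0 lower at an unadjusted p under 0.05. The part of either cell type in the Slc2a1 difference was not tested.

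Irs1 was also lower in HF + LP than in LP (−0.50, interval −0.94 to −0.06, adjusted p by edgeR = 0.255), and Akt2 was higher (0.35, 0.02 to 0.67, adjusted p by edgeR = 0.288). Without LP mouse 2 the Irs1 value was −0.33, and without HF + LP mouse 4 the Akt2 value was 0.21. In this comparison 2 of 6 mural cell markers were lower and 0 higher at an unadjusted p under 0.05. Within diets, Irs1 had r = 0.55 and Akt2 r = 0.52 with the mural cell sum, whose part in these differences was not tested. Slc2a4 differed by −0.13 (interval −0.36 to 0.11), an interval that reaches from a decrease to an increase. With each mouse left out, Slc2a4 ran from −0.19 to −0.03. In all, 4 of 10 members lay under an unadjusted p of 0.05, 3 lower and 1 higher, beside 15.9% of all genes. The groups overlapped for all 10 members, while 1.87% of all genes did not overlap.

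With both protein contents combined, the fat effect on Insr was the clearest of the members. The mean was 657 in the 10 hearts on normal fat and 504 in the 10 hearts on high fat, a log2 fold change of −0.38 with a standard error of 0.086 (interval −0.56 to −0.20). Its adjusted p by edgeR was 0.014, so it missed the threshold of 0.01. It ranged from 0.00344 without LP mouse 13 to 0.0393 without HF + LP mouse 3 when each mouse was left out in turn, and was 0.00981 without HF + LP mouse 1 and 0.00307 by DESeq2. Whether Insr is called for fat therefore rests on the tool and on single hearts, while its lower value on high fat was kept under all 26 alternatives. Markers of other cells moved in this comparison too, with 6 of 7 adipocyte, 3 of 10 cardiomyocyte, and 2 of 6 mural cell markers lower at an unadjusted p under 0.05, and 2 of 9 macrophage markers higher. The cardiomyocyte marker Myh6 (−0.55, adjusted p by edgeR = 0.00252) and the smooth muscle marker Myh11 (−1.54, adjusted p by edgeR = 0.000572) were called. Their part in the Insr difference was not tested.

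Slc2a1 was lower on high fat (−0.45, interval −0.76 to −0.15, adjusted p by edgeR = 0.0745), as were Slc2a4 (−0.25, −0.42 to −0.08, adjusted p = 0.0851) and Igf1r (−0.33, −0.61 to −0.05, adjusted p = 0.163). Akt2, the AKT isoform most closely tied to glucose uptake, was higher (0.24, 0.01 to 0.48, adjusted p by edgeR = 0.218), from a mean of 1024 to one of 1217. None of these 4 passed the threshold. The count was 5 of 10 members under an unadjusted p of 0.05, 4 lower and 1 higher, beside 20.8% of all genes, and the median over the members was −0.17 against −0.02 over all genes. Irs1 (−0.29, −0.60 to 0.02), Irs2 (−0.10, −0.43 to 0.23), Pik3r1 (−0.08, −0.56 to 0.40), Tbc1d4 (−0.04, −0.22 to 0.15), and Igf1 (0.07, −0.28 to 0.42) had intervals that include 0. With each mouse left out, Irs1 ran from −0.36 to −0.20 and Irs2 from −0.19 to −0.03. Pik3r1 ran from −0.20 to 0.0002, Tbc1d4 from −0.09 to 0.004, and Igf1 from −0.05 to 0.15.

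**Figure D3:**
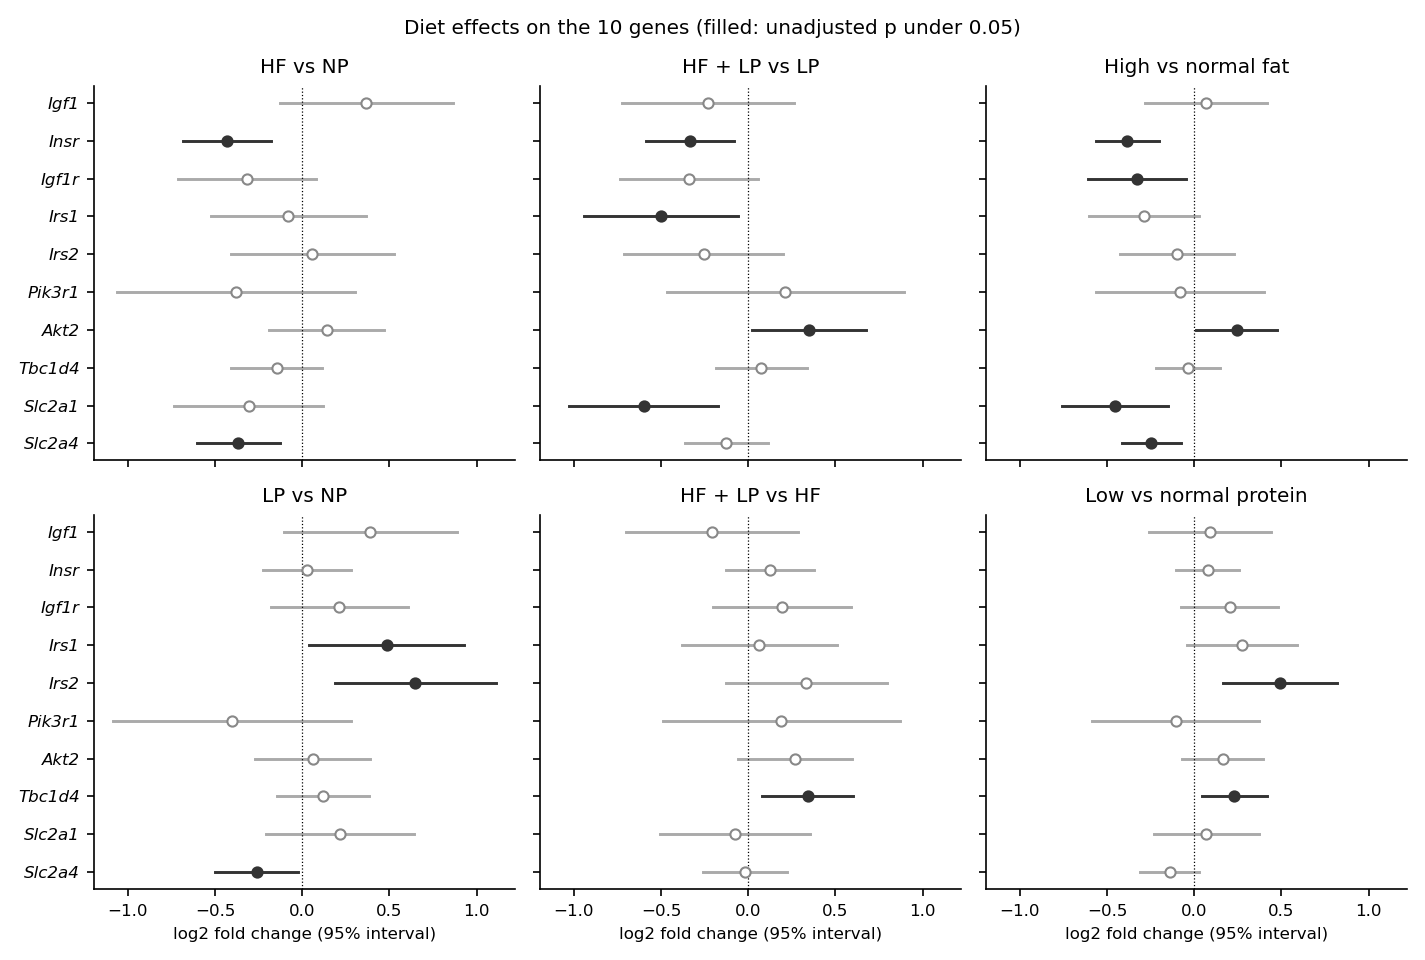
Log2 fold changes of the 10 members (points) with 95% intervals (lines) for 6 comparisons, filled where the unadjusted p was under 0.05. Insr, Irs1, Igf1r, Slc2a1, and Slc2a4 lie left of 0 in all 3 fat comparisons. Insr, Irs1, Irs2, Igf1r, Akt2, and Tbc1d4 lie right of 0 in all 3 protein comparisons, while no point passed the adjusted threshold.

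LP against NP asked what protein restriction did without added fat, and it shares its NP hearts with HF against NP. The 2 insulin receptor substrates had the highest values relative to NP. Irs2, the adaptor known to turn over fast with feeding, was 101.5, 115, 152, 181, and 118 in NP mice 4, 5, 3, 6, and 8 and 248, 159, 261, 232, and 151 in LP mice 2, 13, 20, 15, and 5. The 3 highest LP hearts lay above every NP heart, and the other 2 overlapped NP. The log2 fold change was 0.65 (interval 0.19 to 1.1), with an unadjusted p of 0.00843 and an adjusted p by edgeR of 0.531.

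Irs1 was 406, 238.5, 249, 256, and 287.5 in the same NP mice and 584, 336, 323, 293, and 474 in the LP mice in that order. Its log2 fold change was 0.48 (0.04 to 0.93, adjusted p by edgeR = 0.654), and NP mouse 4 overlapped with the LP hearts. Without LP mouse 2 the value was 0.31. Slc2a4 was lower in LP (−0.26, −0.50 to −0.02, adjusted p by edgeR = 0.654), with 2871 and 2875 in LP mice 13 and 20, which also had the lowest cardiomyocyte marker sums of the LP hearts (38140 and 42290 CPM). In LP against NP all 7 adipocyte markers were higher, 3 at an unadjusted p under 0.05, and all 5 red blood cell and all 5 atrial markers were higher, 1 of each under 0.05. All 10 cardiomyocyte markers were lower in LP (−0.31 to −0.08), 0 of them under 0.05. The part of these cell types in the Irs1, Irs2, and Slc2a4 differences was not tested.

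Thus 2 members were higher and 1 lower at an unadjusted p under 0.05 in LP against NP, beside 7.23% of all genes, with all 10 overlapping between the groups, beside 0.786% of genes that did not. Values for the other 7 members lay between −0.40 (Pik3r1, interval −1.08 to 0.28) and 0.39 (Igf1, −0.11 to 0.89). Insr differed by 0.03 (−0.22 to 0.28) and Igf1r by 0.21 (−0.18 to 0.61). With each mouse left out, Insr ran from −0.07 to 0.12, Igf1r from 0.09 to 0.34, Pik3r1 from −0.57 to −0.23, and Igf1 from 0.225 to 0.49.

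HF + LP against HF asked what protein restriction did in obese mice. Tbc1d4, the AKT substrate that restrains GLUT4 vesicles, was the member under an unadjusted p of 0.05, beside 4.84% of all genes. It was 911, 688, 1002, 932, and 914 in HF mice 1 to 5 and 938, 979.8, 1131, 1438, and 1147 in HF + LP mice 1 to 5. The 3 highest HF + LP hearts lay above every HF heart, and HF mouse 2 lay far below the rest of its group. The log2 fold change was 0.34 (interval 0.08 to 0.60), with an unadjusted p of 0.0134 and an adjusted p by edgeR of 0.684. In the same comparison all 9 macrophage and all 8 fibroblast markers were lower in HF + LP, 1 and 2 of them at an unadjusted p under 0.05, and the mitochondrial share was 38.47 to 47.15% in HF + LP against 38.12 to 39.76% in HF. Of the 6 mural cell markers, 1 was higher and 0 lower at an unadjusted p under 0.05, and their median log2 fold change was −0.03. The mural cell sum was 439 to 583 CPM in HF + LP and 414 to 509 CPM in HF, and within diets Tbc1d4 had r = 0.60 with it and −0.42 with the mitochondrial share. Their part in the Tbc1d4 difference was not tested.

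Irs2 was higher by 0.33 (−0.13 to 0.80), with 259 in HF + LP mouse 5 and 122 to 189 in the other 4 hearts, against 106 to 195 in HF. Akt2 was higher by 0.27 (−0.06 to 0.59) and Insr by 0.13 (−0.13 to 0.38). Single hearts carried much of these values, since Irs2 was 0.15 without HF + LP mouse 5, Akt2 0.13 without HF + LP mouse 4, and Insr 0.05 without HF + LP mouse 1. Slc2a4 differed by −0.02 (−0.26 to 0.22) and Slc2a1 by −0.08 (−0.51 to 0.35), so the intervals leave room for changes of either sign. All 10 members overlapped between the groups, beside 1.18% of all genes that did not.

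Combined over both fat contents, low protein went with higher Irs2 (0.49, interval 0.16 to 0.82, adjusted p by edgeR = 0.7) and higher Tbc1d4 (0.23, 0.04 to 0.41, adjusted p by edgeR = 0.811). These 2 of 10 stood beside 5.47% of all genes under the same unadjusted p, and the median over the members was 0.13 against 0.02 over all genes. Mean Irs2 was 136.5 in the 10 hearts on normal protein and 193 in the 10 on low protein, and mean Tbc1d4 was 937 and 1098. All 9 macrophage and all 8 fibroblast markers were lower on low protein and all 5 red blood cell markers higher, 0 of them under 0.05. Of 6 mural cell and 5 atrial markers, 1 each was higher at an unadjusted p under 0.05. The part of these cell types in the Irs2 and Tbc1d4 differences was not tested.

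The interaction asks whether the fat effect depends on protein. For it, 0 of 10 members lay under an unadjusted p of 0.05, beside 7.17% of all genes. The lowest p was that of Igf1 (unadjusted p = 0.0908, adjusted p by edgeR = 0.745), the ligand made in the heart mainly by cells other than cardiomyocytes. Mean Igf1 was lowest in NP, at 374 ± 66.9, and was 489 ± 133 for LP, 482 ± 188 for HF, and 417 ± 119 for HF + LP (SD, n = 5 each), with an interaction of −0.60 (−1.30 to 0.10). With each mouse left out, this value ran from −0.81 to −0.36. For Insr the interaction was 0.10 (−0.26 to 0.45), so the fat effects at the 2 protein contents, −0.43 and −0.33, were not shown to differ. The Insr interaction ran from −0.002 to 0.19 with each mouse left out.

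Igf1 had its highest counts in single hearts of LP, HF, and HF + LP. It was 769 in HF mouse 3, 691 in LP mouse 13, 620 in HF + LP mouse 3, and 573 in HF mouse 1, and 268 to 521 in the other 16. Within diets Igf1 followed the fibroblast marker sum (r = 0.83) and the atrial marker sum (r = 0.78), and ran against the cardiomyocyte sum (r = −0.78). The part of tissue composition in these Igf1 values was not tested.

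Members also moved with each other from mouse to mouse within diets. Of 45 pairs, 4 had a Benjamini-Hochberg adjusted p under 0.05 when mice were permuted within diets. Igf1r and Pik3r1 varied in the same direction, with Pearson r = 0.82 (permutation p = 7e-05, adjusted p = 0.00315) and Spearman rho = 0.78 (permutation p = 0.00018, adjusted p = 0.0081), and r = 0.80 without the 2 hearts farthest from the median. The lowest Pik3r1 counts, 461 in LP mouse 13, 500.2 in HF mouse 5, and 662 in NP mouse 4, came with Igf1r counts of 330, 307.5, and 296, and the highest, 1761 in HF + LP mouse 1 and 1753 in NP mouse 5, with 512 and 587.

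Akt2 ran the other way from both. With Igf1r, r was −0.70 (permutation p = 0.00161, adjusted p = 0.0362) and rho −0.78 (permutation p = 0.00049, adjusted p = 0.011), and r was −0.66 without the 2 farthest hearts (adjusted permutation p = 0.0613). With Pik3r1, r was −0.61 (permutation p = 0.0036, adjusted p = 0.0405) and rho −0.69 (permutation p = 0.00158, adjusted p = 0.0237), and r was −0.65 without the 2 farthest hearts (adjusted permutation p = 0.0613) and −0.60 without LP mouse 13 (adjusted permutation p = 0.0543).

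The receptors Insr and Igf1r had r = 0.71 (permutation p = 0.00322, adjusted p = 0.0405) but rho = 0.53 (permutation p = 0.0428, adjusted p = 0.275). For this pair r was 0.70 without the 2 farthest hearts (adjusted permutation p = 0.113) and 0.57 without LP mouse 13 (permutation p = 0.026, adjusted p = 0.16), so the direction was kept and the adjusted call was lost. Irs1 and Pik3r1, with r = −0.59 (permutation p = 0.0185, adjusted p = 0.119) and rho = −0.62 (permutation p = 0.00923, adjusted p = 0.104), missed the threshold over all hearts and reached r = −0.76 without LP mouse 13 (adjusted permutation p = 0.013).

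A broad axis of variation ran through these hearts, since the first principal component of within-diet deviations held 37.1% of the variance of 10089 genes. Pik3r1 (r = 0.71), Igf1r (0.57), and Insr (0.57) lay along it in one direction and Slc2a1 (−0.76) and Igf1 (−0.73) in the other, while Akt2 had r = −0.17. Its part in the pairs above was not tested. Body weight within diets was related to 0 of 10 members, with Akt2 the nearest (r = 0.48, permutation p = 0.0777, adjusted p = 0.737, and rho = 0.48, permutation p = 0.07, adjusted p = 0.7).

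**Figure D4:**
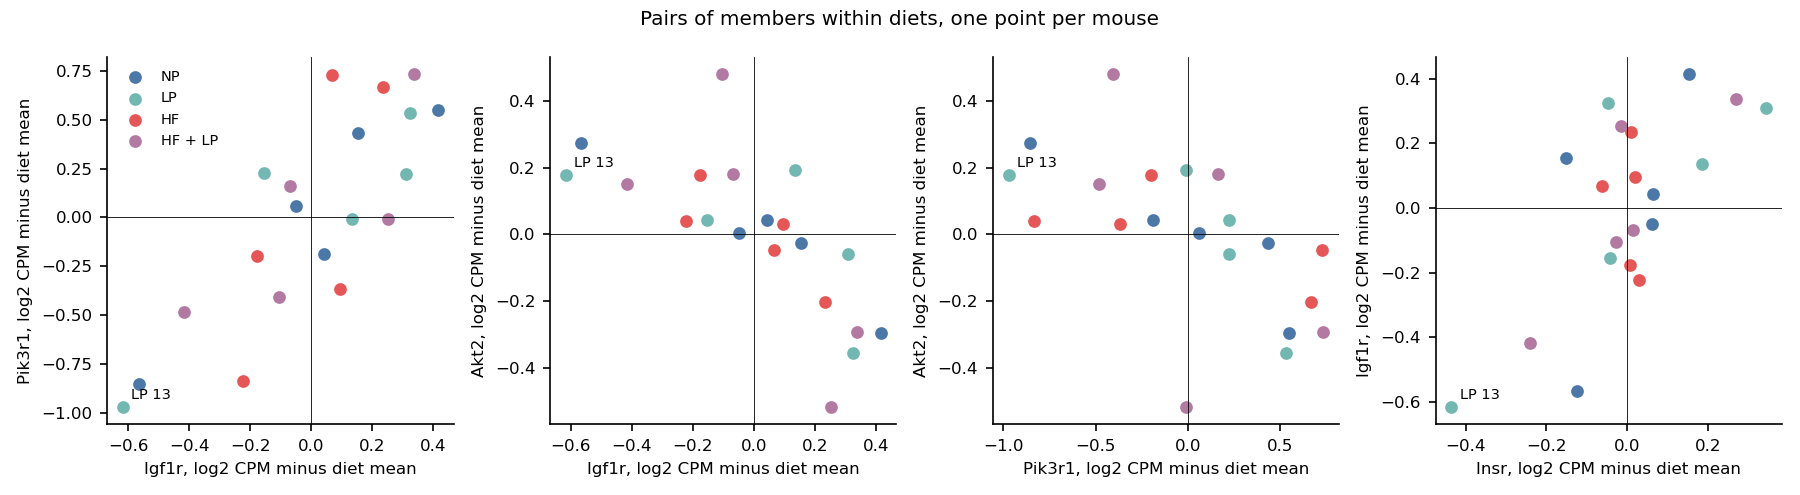
Log2 CPM of 4 pairs of members with each diet's mean removed (both axes, log2 units), 1 point per mouse colored by diet and LP mouse 13 named. Igf1r and Pik3r1 rise together, Akt2 falls as either rises, and Insr rises with Igf1r, with r = 0.71 over all hearts and 0.57 without LP mouse 13.

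The genes whose pattern over the 20 hearts was most like each member, among genes with a mean normalized count over 50, are given as a description. Pik3r1 was nearest to Ankrd12 (Pearson r = 0.95) and Tfdp2 (0.95), and Igf1r to Kmt2a (0.93) and Tet3 (0.93), a histone methyltransferase and a DNA demethylase. Slc2a4 was nearest to Cand2 (0.91) and Aldh4a1 (0.91), Igf1 to Tspan5 (0.92) and Rnase4 (0.90), and Slc2a1 to Plcd1 (0.90) and Mnt (0.89). Akt2 was nearest to Mdm2 (0.89) and Mrpl17 (0.86), Insr to Zmynd8 (0.88) and Zbtb37 (0.88), and Tbc1d4 to Rbm12 (0.83) and Dlc1 (0.78). Irs1 had Foxj2 (0.80) among its nearest genes, Irs2 was nearest to Dgkq (0.76) and Cfap43 (0.75), and all these values share libraries and diet means.

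Around the members, 81 further genes of the pathway were tested, and 0 of them were called in any of the 7 comparisons by edgeR. On high fat, 4 were higher and 14 lower at an unadjusted p under 0.05, with a median of −0.09 over the 81. Over all 13991 genes 1159 were higher and 1756 lower at that threshold, 20.8% in all, so the share among the 81 was near the background. The smallest adjusted p was that of Gys1, the muscle glycogen synthase that insulin activates, at a mean of 1779 on normal fat and 1352 on high fat (−0.39, standard error 0.099, adjusted p by edgeR = 0.0268). Gsk3a, the kinase that holds glycogen synthase inactive until AKT phosphorylates it, was −0.36 (adjusted p by edgeR = 0.0629), and the transporter Slc2a8 was −0.40 (adjusted p = 0.0651).

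By role, AKT targets had 4 of 10 lower on high fat and glucose transporters and hexokinases 3 of 9 lower at the unadjusted threshold, which 20.8% of all genes passed in either direction. GLUT4 vesicle traffic had 3 of 14 higher and 1 lower, among them the small GTPases Rab8a (0.20) and Rab13 (0.28), adjusted p by edgeR 0.135 and 0.169. Adaptors and receptor inhibitors had 2 of 13 lower, ligands and binding proteins 1 of 10 higher (Stc1, 0.50, adjusted p by edgeR = 0.114) and 1 lower, and PI3-kinase subunits with lipid phosphatases 1 of 11 lower. Receptors had 1 of 2 lower, and AKT with its kinases and inhibitors 1 of 12 lower. The growth hormone receptor Ghr, the receptor in that count, was −0.27 on high fat (adjusted p by edgeR = 0.0742) and was already −0.36 in HF against NP (adjusted p = 0.172).

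**Figure D5:**
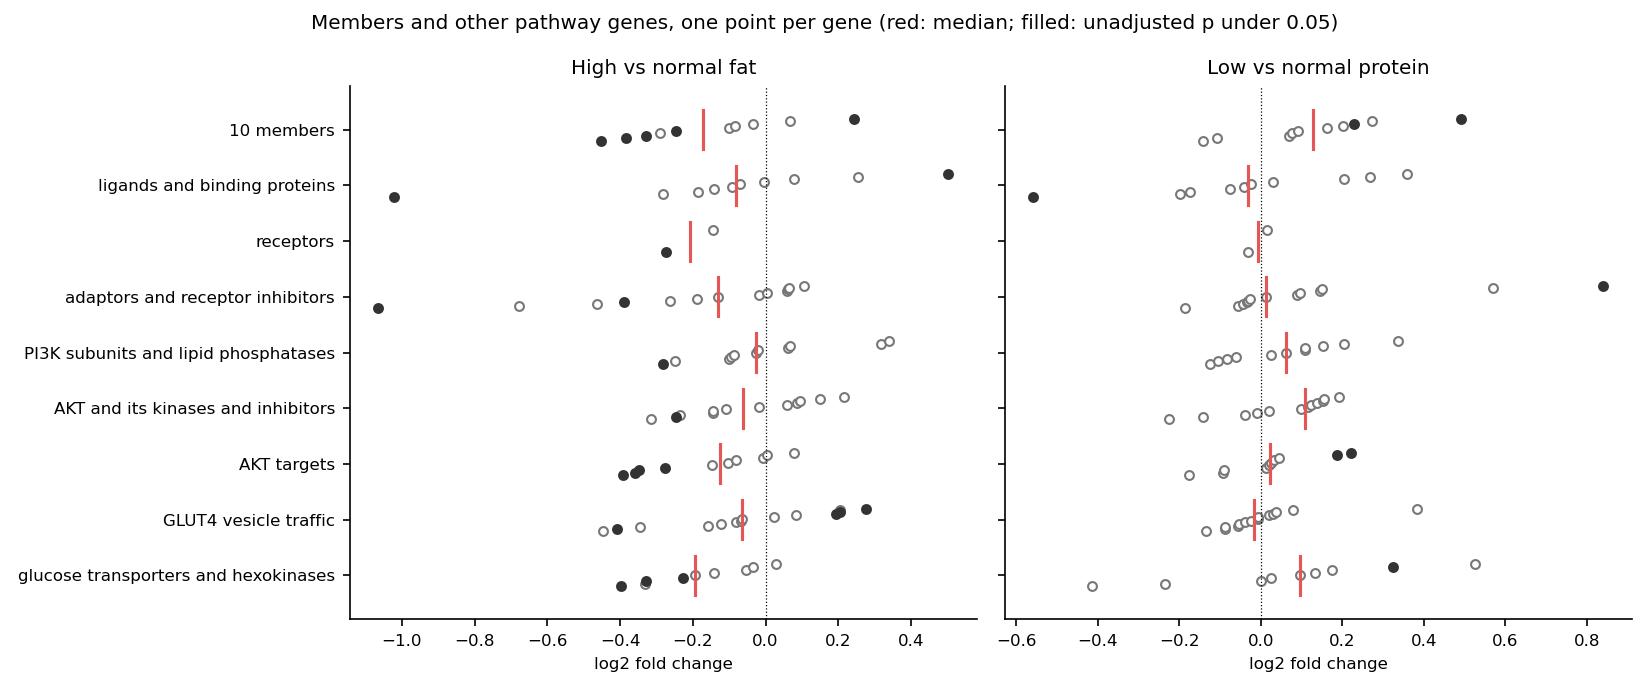
Log2 fold changes (x axes) of the 10 members and of 81 other pathway genes in 8 lists (y axes), for high against normal fat and low against normal protein, with 1 point per gene, a red line at each list's median, and filled points where the unadjusted p was under 0.05. The member median is −0.17 for fat and 0.13 for protein, and no gene shown passed the adjusted threshold.

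Paralogs of the members were read beside them. Akt1, the AKT isoform tied to growth, had more tags than Akt2 in each diet mean (2705 to 3455), and was −0.24 on high fat (adjusted p by edgeR = 0.327), opposite in sign to Akt2. The difference between Akt1 and Akt2 was not tested. Pik3r2 (−0.02) and Pik3r3 (0.32), the other regulatory subunits, and Pik3ca (−0.03), the catalytic subunit, had adjusted p-values by edgeR of 0.937, 0.29, and 0.899. Tbc1d1, the relative of Tbc1d4, spread over 143 to 1359 in LP, and differed by −1.27 in HF + LP against LP (adjusted p by edgeR = 0.23).

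Foxo1 was 514 ± 29.1 in NP and 611 ± 26.5 in LP (SD, n = 5) with no overlap, a log2 fold change of 0.25 (adjusted p by edgeR = 0.508), and was 0.19 on low protein over both fat contents (adjusted p = 0.678). Foxo3 had a mean of 963 in NP and 735 in HF, also with no overlap (−0.39, adjusted p by edgeR = 0.289). Of the 81 genes, 2 did not overlap in LP against NP and 2 in HF against NP. The shares of all genes were 0.786% and 5.67%. Among the receptor inhibitors, Grb10 and Grb14 had fat effects of 0.06 and −0.19 (adjusted p by edgeR 0.743 and 0.667). Txnip, the brake on glucose uptake, spread from 1581 to 20360, and Igf2 and Igf2r had unadjusted p-values over 0.05 in all 7 comparisons.

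Among minor transporters, Slc2a3, the neuronal-type transporter, was 22.4 ± 1.48 in NP and 34.98 ± 5.33 in LP (SD, n = 5) with no overlap (0.65, adjusted p by edgeR = 0.387), and 22.3 in HF + LP (−0.65 against LP, adjusted p = 0.101). Slc2a12 averaged 40.6 ± 10.5 for HF and 58.5 ± 7.88 for HF + LP (SD, n = 5), again with no overlap (0.51, adjusted p by edgeR = 0.819). It was the 1 of the 81 genes without overlap in HF + LP against HF, beside 1.18% of all genes. At an unadjusted p under 0.05, 7 of the 81 genes were higher and 1 lower in LP against NP (7.23% of all genes in either direction), and 1 was higher and 11 lower in HF + LP against LP (15.9% of all genes). HF against NP gave 1 higher and 6 lower (13.1%), HF + LP against HF 1 higher and 0 lower (4.84%), low protein 4 higher and 1 lower (5.47%), and the interaction 1 higher and 5 lower (7.17%). These counts were near or below the background and are no result about the pathway.

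All members are protein-coding genes of GRCm38. Insr lies at chr8:3122061-3279617 and Slc2a4 at chr11:69942539-69948188, both on the minus strand. Of 11 annotated genes that overlap a member, 4 touch an exon, all on the opposite strand (of Irs1, Irs2, Igf1, and Slc2a1), and 0 of the 11 are listed in the counts. Whether the counting used the strand is not given in the sources used here, so reads of these partners could have been added to those 4 members.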

How the data were processed

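RNA of snap-frozen left ventricle from 20 mice was sequenced as 3′-end tags, 1 library per mouse. The authors deposited a raw count per gene and library. Reads were aligned on the BlueBee platform, the submitters' processing notes name GRCm38 and DESeq2 1.22.2, and the counting program and annotation are not given in the sources used here. Each library carries its own animal number within its diet and was taken as 1 mouse, so p-values measure the spread between these samples. The label of LP mouse 5, which had the highest Insr count, also calls it a second sample of that animal, and no other sample of it was analysed here.

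Counts were filtered with filterByExpr and scaled by TMM in edgeR 4.0.16 (R 4.3.3, limma 3.58.1), leaving 13991 of 15956 genes. A quasi-likelihood model of the 4 diets gave every comparison, with Benjamini-Hochberg adjustment over all tested genes. Comparisons against a common diet share its mice. A normalized count is a count divided by the TMM-scaled library size and brought to the geometric mean of those sizes. Log2 CPM used a prior count of 2. Within-diet correlations used log2 CPM with diet means removed and 100000 permutations of mice within diets (two-sided). Pair tests without the 2 farthest hearts used fewer permutations. The hearts left out were those farthest from the median log2 CPM of a single gene of the pair, so they can differ between pairs. DESeq2 1.42.0 was an alternative, and the edgeR steps were tested on simulated counts. Same-numbered mice of different diets are different animals, so numbers were not used as pairs.

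The members and gene lists were chosen with earlier results of these data known. Further genes were named if they were close paralogs or partners on a fixed list, were called, or had one of the 3 smallest unadjusted p-values under 0.05 in either direction of a comparison. Of 85 further pathway genes on the lists, 81 were tested. Gene coordinates are from GENCODE on GRCm38, and promoter windows from RefSeq on GRCm38.p6. A few genes that this rule names are not reported here.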

Additional observations from a re-analysis of the deposited data

Results flagged for a closer look

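Each of the 40 sets of 5 mice (10 members in 4 diets) was examined for a single mouse far from the other 4, by the gap to its nearest neighbor over the range of the set. This marked 3 sets, and chance marks about 1 set in 20. Insr in HF mouse 2 was 461.3, with the other HF mice at 483.5 to 491.2, so the gap was large only beside a narrow range. Igf1 in HF + LP mouse 3 was 620.1, with the others at 332.7 to 410.5. Tbc1d4 in HF mouse 2 was 688, with the others at 911.1 to 1002, and this mouse enters the Tbc1d4 difference between HF + LP and HF.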

How the results depend on the processing

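Of 70 member effects (10 members in 7 comparisons), 47 kept their direction under every alternative and 23 did not. Insr for high fat was called under an adjusted p of 0.05, by DESeq2 on all diets, and without LP mouse 13 and HF mouse 1 (1 member each time), and leaving out each mouse gave 0 to 1 members, with Insr called without LP mouse 13 or without HF + LP mouse 1. DESeq2 on the compared diets alone called 2 members in HF against NP.

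Counts over all genes moved more. HF against NP, with 37 genes called, gave 157 at an adjusted p under 0.05, 158 by DESeq2, 61 with only the compared diets, 377 by DESeq2 on those, 66 without LP mouse 13 and HF mouse 1, and 20 to 69 (the latter without LP mouse 13) with each mouse left out. HF + LP against LP, with 14, gave 45, 81, 0, 34, and 3 in the same order, 5 with the library name number as a factor, and 1 to 16 with each mouse left out. High fat, with 139, gave 499 at 0.05, 389 by DESeq2, and 79 to 197 with each mouse left out. With 0 called, LP against NP gave 3 by DESeq2, low protein 1, and HF + LP against HF 16 by DESeq2, 25 on the compared diets alone, 6 without the 2 mice, and 0 to 1 with each mouse left out. The cause was not tested.

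The replicate block on mouse number gave 2 genes in HF against NP, 0 in HF + LP against LP, and 13 for high fat, where Insr was −0.50 with an adjusted p by edgeR of 0.0433. With this block Slc2a1 was −0.07 rather than −0.60 in HF + LP against LP and −0.20 rather than −0.45 for high fat, Insr −0.62 and Irs1 −0.98 in HF + LP against LP, and Irs1 1.09 in LP against NP. Same-numbered mice are different animals. Their deviations correlated at −0.483 to 0.128 for NP and HF (3 pairs), −0.0188 to 0.374 for LP and HF + LP (2 pairs), −0.556 to 0.475 for HF and HF + LP (5 pairs), −0.289 to 0.153 for NP and HF + LP (3 pairs), −0.109 to 0.196 for LP and HF (2 pairs), and 0.207 for NP and LP (1 pair), so no set of 3 or more pairs was positive throughout. Without the 2 mice farthest from the median, 2 rather than 4 member pairs lay under an adjusted permutation p of 0.05, Igf1r with Pik3r1 (0.0202), which was among the 4, and Irs1 with Pik3r1 (0.0214), which was not. Depth limits Irs2 most, with as few as 87 counts in a library.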
